A study of Homo sapiens with 6 samples.

Results

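The 10 genes described here govern the storage of fat in cells, its release and its entry into oxidation. They are PLIN2, PLIN3, DGAT1, DGAT2, PNPLA2, HILPDA, G0S2, LPIN2, ANGPTL4 and CPT1A. They were found by gene name in a deposited table of 58735 human genes, and 10 of 10 were present. Values are FPKM, fragment counts scaled for gene length and sequencing depth. Levels of different genes set side by side rest on the gene lengths used. The samples were AZ-521 cells of genotype WT, labelled as a gastric cancer line and listed by cell banks as a duodenal carcinoma line. They had received 10 µM platycodon D (PD), a saponin from balloon flower root, for 48 h (3 samples), or its solvent DMSO for 48 h (3 samples). The series asked how platycodon D acts on such cells. The cells are 1 line, and the labels do not say whether the 3 samples of a group were separate cultures, and the p-values below therefore reflect sample-to-sample spread alone, possibly technical.

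Cells keep surplus fatty acids as triglyceride in lipid droplets, organelles with a neutral lipid core under a single phospholipid layer coated by perilipins. Lipins turn phosphatidic acid into diacylglycerol, and the DGAT enzymes add the last fatty acid. Adipose triglyceride lipase, encoded by PNPLA2, starts breakdown, and the small proteins HILPDA and G0S2 inhibit it. Fatty acids bound for oxidation enter mitochondria as acylcarnitines, which CPT1 makes. Fatty acids activate PPAR transcription factors, and PLIN2, ANGPTL4 and CPT1A are among the known PPAR targets. HILPDA, ANGPTL4 and PLIN2 are also known to respond to hypoxia.

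PD samples held 15328454 to 15821524 reads over genes and DMSO samples 14915538 to 16341687, recovered from the FPKM values and gene lengths. None of 7 gastric markers, 6 intestinal markers or 5 epithelial markers, EPCAM and CDH1 among them, reached 1 FPKM in every sample. The nearest was CDX2, an intestinal transcription factor, with 0.979 to 1.44 FPKM in PD samples and 1.01 to 1.59 FPKM in DMSO samples. The adipocyte markers ADIPOQ, CIDEC and LPL were listed at 0, and that list of 6 summed to 0.617 to 1.01 FPKM in PD samples against 0.259 to 0.556 FPKM in DMSO samples, mostly from PLIN1. The 4 fibroblast markers summed to 9.55 to 11.7 FPKM in PD samples against 12.8 to 17.6 FPKM in DMSO samples, mostly from LUM. The part of these genes in the results below was not tested.

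Of the 10 genes, PLIN3 and ANGPTL4 rose about 2-fold under PD, and no gene fell past the test. PLIN3, a droplet coat protein, had a fold change of 2.08 on the log2(FPKM + 1) scale, and ANGPTL4, a secreted lipase inhibitor, one of 1.90. The oxidation gate CPT1A, the synthesis genes DGAT1, DGAT2 and LPIN2 and the lipolysis genes PNPLA2 and HILPDA differed by smaller amounts and did not pass. PLIN2, the main droplet coat protein of most cells, was listed near 0 in both groups, and G0S2 was listed at 0. The test was limma on log2(FPKM + 1) across the 13579 genes that reached 1 FPKM in 3 or more samples, and "rose" or "fell" means a Benjamini-Hochberg adjusted p under 0.05 over all of them. All 8 tested members reached 1 FPKM in each of the 6 samples. Of those 8, 2 rose and 0 fell, against 14.3% of all tested genes that rose and 12.7% that fell (27.1% in either direction). With at least a 2-fold change as well, 1 member was higher and 0 lower, against 2.84% and 0.979% of all tested genes. Their median log2 fold change was 0.20, beside 0.00 for all tested genes. In bulk RNA, fewer cells with a transcript and less of it per cell cannot be told apart.

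**Figure D1:**
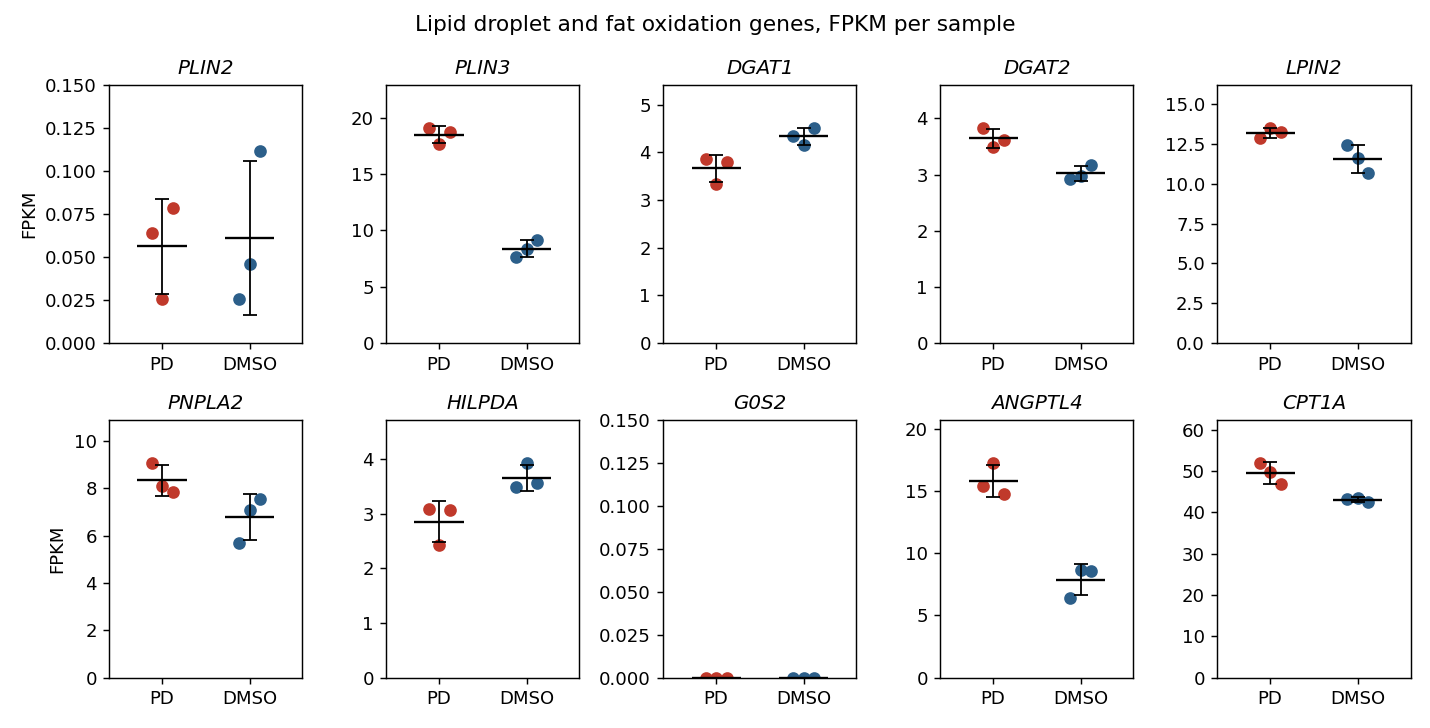
FPKM of the 10 genes in each sample, with PD samples in red and DMSO samples in blue. Lines give the mean and bars the SD of 3 samples, and each panel has its own axis from 0. PLIN3 and ANGPTL4 stand about 2-fold apart between the groups, PLIN2 lies between 0.0256 and 0.111 FPKM, and G0S2 is at 0.

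The sequences around the transcription starts of PLIN3 and ANGPTL4, the members that rose, and of PLIN2, the paralog of PLIN3 that was near 0, are printed for comparison. They run from 250 bases before to 50 after the RefSeq start (build GRCh38.p14), 5′ to 3′ on the gene's strand. Capitals mark the hypoxia response cores ACGTG and GCGTG and the TATA box TATAAA, on either strand. RefSeq entries matched 7 of the 10 genes.
PLIN3 (chr19:4867618-4867917, minus strand): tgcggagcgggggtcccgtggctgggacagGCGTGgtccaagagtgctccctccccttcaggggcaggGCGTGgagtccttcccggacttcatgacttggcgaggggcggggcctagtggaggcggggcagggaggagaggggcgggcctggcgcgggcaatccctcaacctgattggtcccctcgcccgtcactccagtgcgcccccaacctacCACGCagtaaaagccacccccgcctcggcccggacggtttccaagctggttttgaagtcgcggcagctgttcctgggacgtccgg
ANGPTL4 (chr19:8363905-8364204, plus strand): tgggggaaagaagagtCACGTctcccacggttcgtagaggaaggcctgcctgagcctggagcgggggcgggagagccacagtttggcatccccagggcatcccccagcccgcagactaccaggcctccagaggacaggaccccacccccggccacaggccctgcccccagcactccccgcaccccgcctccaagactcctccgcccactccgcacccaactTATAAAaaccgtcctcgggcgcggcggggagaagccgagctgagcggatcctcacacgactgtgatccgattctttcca
PLIN2 (chr9:19127443-19127742, minus strand): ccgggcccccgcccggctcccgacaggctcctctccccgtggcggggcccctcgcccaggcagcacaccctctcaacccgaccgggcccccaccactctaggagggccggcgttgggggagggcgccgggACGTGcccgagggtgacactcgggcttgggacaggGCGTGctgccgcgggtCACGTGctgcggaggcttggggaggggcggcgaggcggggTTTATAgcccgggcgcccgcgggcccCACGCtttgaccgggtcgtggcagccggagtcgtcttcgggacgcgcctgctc
The PLIN3 stretch held 3 matches to GCGTG and 0 to ACGTG. The ANGPTL4 stretch held 1 match to ACGTG, 0 to GCGTG and 1 TATA box. The PLIN2 stretch held 3 matches to ACGTG, of which both strands of 1 E-box CACGTG supply a pair, as well as 2 to GCGTG and 1 TATA box. Among 35116 promoters of the same length, 21.4% held ACGTG, 36.5% held GCGTG and 11.5% held TATAAA. The PPAR element, a pair of AGGTCA sites in the same direction with 1 free base between them, matched 0 of the 7 promoters on either strand and 0.0228% of all. At so small a share, 0 of 7 could be foreseen and says nothing about PPAR control. Variants of the element and stretches outside the window were not searched. A match in this window, or the lack of 1, is a description of letters only.

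Among the coat proteins, PLIN3 carried the rise. PLIN3 (ENSG00000105355, chromosome 19, 4838341 to 4867768 on GRCh38, minus strand) encodes a perilipin that also occurs free in the cytosol and moves onto forming droplets. It had 19.1, 17.6 and 18.7 FPKM in PD replicates 1 to 3, against 7.59, 8.38 and 9.12 FPKM in DMSO replicates 1 to 3. Each PD sample lay above each DMSO sample, with no overlap. The means were 18.5 ± 0.758 and 8.36 ± 0.766 FPKM (SD, n = 3 each), with a log2 fold change of 1.06 ± 0.09 (SE) and a limma adjusted p of 0.000523. It was the member past the 2-fold size criterion. The values rest on 2376 reads in PD samples and 1183 in DMSO samples. Under 16 other settings PLIN3 passed each time, with log2 fold changes from 0.91 to 1.14.

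PLIN2 (ENSG00000147872, chromosome 9, 19108375 to 19149290, minus strand) had 5, 2 and 6 reads in PD replicates 1 to 3, against 2, 4 and 10 reads in DMSO replicates 1 to 3. In FPKM these were 0.0640, 0.0256 and 0.0787 in PD samples and 0.0256, 0.0461 and 0.111 in DMSO samples. The groups overlapped, and PLIN2 did not reach the level needed for the test. The 13 reads of PD and the 16 of DMSO gave a rate ratio of 0.890 with an exact 95% interval from 0.394 to 1.97, which covers counting error only. No annotated gene overlaps PLIN2 in the table. Its coding neighbours within 500 kb were mostly well read: RPS6, a ribosomal protein gene, averaged 223 FPKM in PD and 258 FPKM in DMSO samples. RRAGA, which encodes a Rag GTPase of nutrient sensing, averaged 66.7 FPKM in PD and 75.4 FPKM in DMSO samples. HAUS6, an augmin subunit on the same strand beside PLIN2, averaged 7.45 FPKM in PD and 12.2 FPKM in DMSO samples. These neighbours were named after their values were seen. A value near 0 here may not mean near absence. MRPS24, a mitochondrial ribosome gene named after its value was seen, averaged only 0.160 FPKM in PD and 0.123 FPKM in DMSO samples. As listed, PLIN2 stood at a small share of PLIN3. The ratio of their FPKM was 0.00300 ± 0.00141 in PD and 0.00703 ± 0.00461 in DMSO samples (SD, n = 3 each).

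Of the triglyceride synthesis enzymes among the 10 genes, DGAT1, DGAT2 and LPIN2, none passed the test. DGAT1 (ENSG00000185000, chromosome 8, 144314584 to 144326910, minus strand) encodes the acyltransferase of the endoplasmic reticulum that re-esterifies fatty acids from outside and from lipolysis. It had 3.86, 3.33 and 3.80 FPKM in PD replicates 1 to 3, against 4.35, 4.16 and 4.51 FPKM in DMSO replicates 1 to 3. The groups did not overlap and PD was lower, with a log2 fold change of -0.20 ± 0.09 and an adjusted p of 0.152 in limma (95% interval of the log2 fold change -0.41 to 0.02). DGAT1 passed with every sample scaled to the same total (adjusted p = 0.0330) and with array weights (adjusted p = 0.0321). It overlaps HSF1 on the opposite strand, at 15.4 FPKM in PD and 16.2 FPKM in DMSO samples, and the sources used here do not give whether counting used the strand.

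DGAT2 (ENSG00000062282, chromosome 11, 75759512 to 75801535, plus strand), an unrelated enzyme for the same reaction that is tied to newly made fatty acids, leaned the other way. It had 3.83, 3.49 and 3.62 FPKM in PD replicates 1 to 3, against 2.92, 2.97 and 3.17 FPKM in DMSO replicates 1 to 3. Each PD sample was above each DMSO sample, yet the log2 fold change of 0.21 ± 0.09 did not pass (limma adjusted p = 0.123, unadjusted 0.0494). LPIN2 (ENSG00000101577, chromosome 18, 2916994 to 3013315, minus strand), a phosphatidic acid phosphatase, had 12.9, 13.5 and 13.2 FPKM in PD replicates 1 to 3. Its DMSO replicates 1 to 3 had 12.4, 11.6 and 10.7 FPKM. The groups were separate by a gap smaller than the spread within DMSO, with a log2 fold change of 0.18 ± 0.09 (limma adjusted p = 0.163). LPIN2 passed with array weights (adjusted p = 0.0250).

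For lipolysis, the lipase and the inhibitor with reads pointed in opposite directions without passing. PNPLA2 (ENSG00000177666, chromosome 11, 818902 to 825573, plus strand) had 9.08, 8.08 and 7.83 FPKM in PD replicates 1 to 3, against 5.68, 7.10 and 7.56 FPKM in DMSO replicates 1 to 3. DMSO replicate 1 was the lowest, and the closest samples of the groups, 7.83 and 7.56 FPKM, nearly met. Its log2 fold change was 0.27 ± 0.12 (limma adjusted p = 0.134), and it was 0.16 without DMSO replicate 1. HILPDA (ENSG00000135245, chromosome 7, 128455849 to 128458418, plus strand), a short protein that binds and inhibits adipose triglyceride lipase, had 3.08, 2.42 and 3.06 FPKM in PD replicates 1 to 3. Its DMSO replicates 1 to 3 had 3.49, 3.94 and 3.56 FPKM. All PD samples were below all DMSO samples, with a log2 fold change of -0.28 ± 0.11 (limma adjusted p = 0.0991, unadjusted 0.0366). HILPDA passed with equal totals (adjusted p = 0.0294) and with array weights (adjusted p = 0.0108). It rested on the fewest reads of the tested members, 270 in PD samples and 380 in DMSO samples.

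G0S2 (ENSG00000123689, chromosome 1, 209675420 to 209676388, plus strand), the other inhibitor of that lipase, was listed at 0 in all 6 samples. A 0 in this table may not mean absence, since TOMM6, a subunit of the mitochondrial import pore that cells need in general, was also listed at 0 (named after its value was seen). An antisense gene, AL031316.1, spans G0S2 and was listed at 0 as well. Of the coding neighbours within 500 kb, UTP25, a ribosome assembly gene, averaged 7.33 FPKM in PD and 5.40 FPKM in DMSO samples, while CAMK1G and HSD11B1 were also listed at 0. These were named after their values were seen.

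ANGPTL4 (ENSG00000167772, chromosome 19, 8363289 to 8374373, plus strand) encodes a secreted protein that inactivates lipoprotein lipase outside the cell. It had 15.4, 17.3 and 14.8 FPKM in PD replicates 1 to 3, against 6.40, 8.65 and 8.58 FPKM in DMSO replicates 1 to 3. The lowest PD sample stood well above the highest DMSO sample. The means were 15.8 ± 1.29 and 7.88 ± 1.28 FPKM (SD, n = 3 each), with a log2 fold change of 0.93 ± 0.13 and a limma adjusted p of 0.00276. The rise fell short of the 2-fold size criterion on this scale. It passed under all 16 other settings, with log2 fold changes from 0.78 to 1.01. Its target was not read: LPL, lipoprotein lipase, was listed at 0 in all samples.

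CPT1A (ENSG00000110090, chromosome 11, 68754620 to 68844410, minus strand), the carnitine acyltransferase of the outer mitochondrial membrane, was the most abundant of the 10 genes and had a mean above 94.7% of tested genes. It had 52.1, 49.8 and 46.9 FPKM in PD replicates 1 to 3, against 43.3, 43.6 and 42.5 FPKM in DMSO replicates 1 to 3. The groups were separate, and PD samples varied more than DMSO samples. The log2 fold change was 0.20 ± 0.08 (95% interval 0.01 to 0.38), with a limma adjusted p of 0.112 and an unadjusted p of 0.0435. It passed with array weights (adjusted p = 0.0212) and without DMSO replicate 1 and PD replicate 3 (0.0474), but stood at 0.04 with equal totals (0.775). The other isoforms were low: CPT1B averaged 0.585 FPKM in PD and 0.355 FPKM in DMSO samples, and CPT1C 0.507 FPKM in PD and 0.556 FPKM in DMSO samples.

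**Figure D2:**
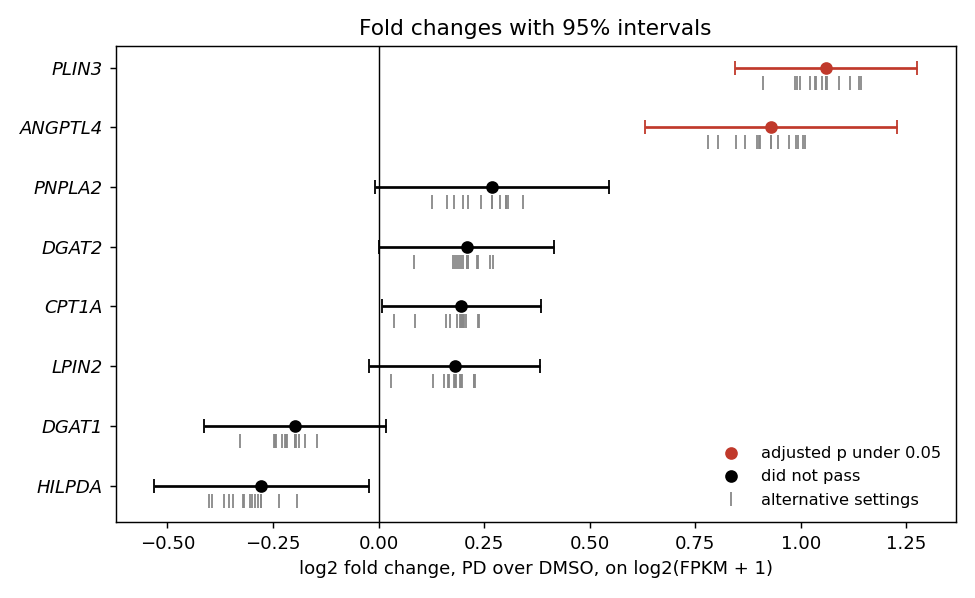
Log2 fold changes of the 8 tested genes, PD over DMSO, on the log2(FPKM + 1) scale, as points with 95% intervals; grey ticks are the values under 16 other settings. PLIN3 and ANGPTL4 (red) passed at an adjusted p under 0.05, and the 6 others lie between -0.28 and 0.27.

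In all, each of the 8 tested genes had separate groups, 6 with PD higher and 2 with PD lower, while 22.5% of tested genes had all PD samples above all DMSO samples and 21.9% below. The order of levels changed with treatment. In PD samples it ran CPT1A, PLIN3, ANGPTL4, LPIN2, PNPLA2, DGAT1, DGAT2, HILPDA, PLIN2 and G0S2, and only DGAT1 and DGAT2 overlapped among neighbours. In DMSO samples LPIN2 stood second, ahead of PLIN3, ANGPTL4 and PNPLA2, whose ranges overlapped in turn, and HILPDA stood above DGAT2. The 3 coding genes with the profile nearest to PLIN3 over the 6 samples, by root-mean-square distance of log2(FPKM + 1) from the DMSO mean, were GRN, TAGLN2 and IRS2, at 0.0246, 0.0311 and 0.0396. GRN encodes progranulin, TAGLN2 an actin-binding protein and IRS2 an insulin receptor substrate.

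Ratios within a sample do not depend on how samples were scaled. The DGAT2 to DGAT1 ratio was 0.992, 1.05 and 0.954 in PD replicates 1 to 3, against 0.672, 0.715 and 0.702 in DMSO replicates 1 to 3. In FPKM, the transcripts were thus level with each other under PD and DGAT1 was ahead in DMSO. That order rests on the gene lengths used, 7905 bases for DGAT2 and 4131 for DGAT1. In reads, DGAT2 was ahead in both groups, with 1318 against 691 in PD and 1198 against 898 in DMSO samples. The shift of the ratio between groups does not depend on gene length. The HILPDA to PNPLA2 ratio was 0.339, 0.300 and 0.391 in PD replicates 1 to 3, against 0.615, 0.555 and 0.470 in DMSO replicates 1 to 3. For both ratios the groups were separate, and the exact two-sided permutation p was 0.10, the smallest that 3 against 3 samples allow (adjusted over 7 ratios 0.233). The ANGPTL4 to PLIN3 ratio, chosen after the values were seen, overlapped between groups, at 0.858 ± 0.105 in PD and 0.939 ± 0.0944 in DMSO samples (SD, n = 3 each; exact permutation p = 0.30).

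**Figure D3:**
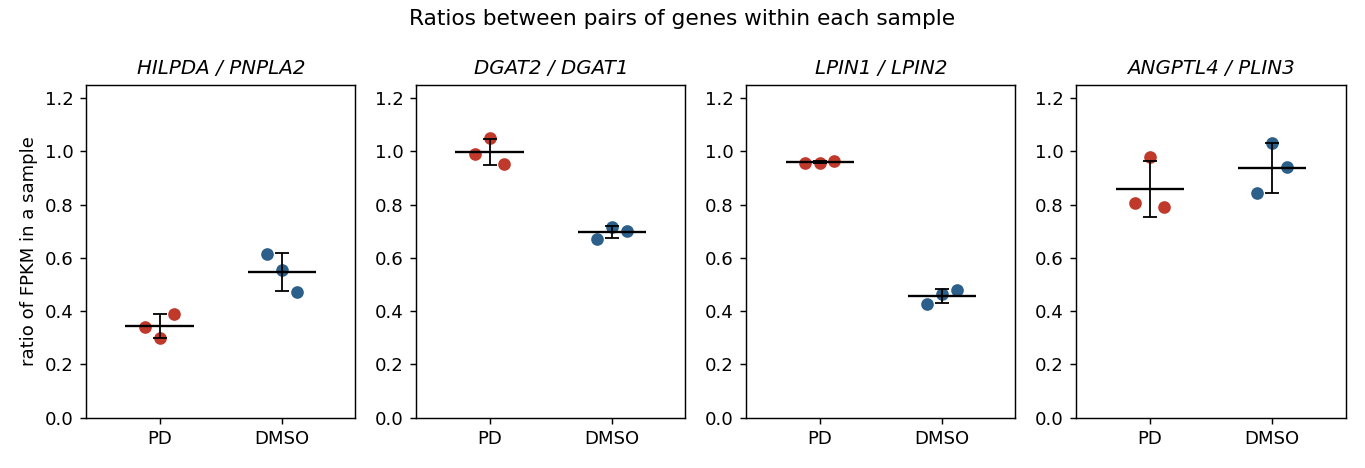
Ratios of FPKM between pairs of genes within each sample, PD in red and DMSO in blue, with the mean and SD of 3 samples. HILPDA to PNPLA2 is lower and DGAT2 to DGAT1 and LPIN1 to LPIN2 are higher in PD samples, while ANGPTL4 to PLIN3 overlaps.

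Further genes of lipid handling and its regulators, and other hypoxia targets, were read through 12 lists of 146 genes, of which 94 were tested. Of these, 20 rose and 10 fell, or 21.3% and 10.6%, against 14.3% and 12.7% of all tested genes, with a median log2 fold change of -0.01. Those 2 shares of all tested genes are the background of each list's counts, and no list was tested as a set. In triglyceride synthesis 5 of 11 tested genes rose and 0 fell, with a median of 0.33, against 14.3% and 12.7% of all tested genes. LPIN1, a lipin like LPIN2, averaged 12.7 ± 0.307 FPKM in PD and 5.25 ± 0.147 FPKM in DMSO samples (SD, n = 3 each; log2 fold change 1.13 ± 0.08, limma adjusted p = 0.000218). In FPKM, LPIN1 thus came near LPIN2 under PD. Its ratio to LPIN2 was 0.958, 0.956 and 0.964 in PD replicates 1 to 3, against 0.426, 0.464 and 0.478 in DMSO replicates 1 to 3. That pair was chosen after the values were seen (exact permutation p = 0.10). The acyltransferases AGPAT4, AGPAT5 and GPAT3, which build phosphatidic acid or its precursors, had log2 fold changes of 1.02, 0.82 and 0.42. AGPAT4 shares its strand with the overlapping AGPAT4-IT1, at 2.51 FPKM in PD and 1.16 FPKM in DMSO samples. The rise of GPAT3 did not pass without DMSO replicate 2 (adjusted p = 0.0521) or with the replicate block (0.0594). LCLAT1, an acyltransferase that remodels cardiolipin, was the remaining gene that rose, by 0.33 (limma adjusted p = 0.0415), and was picked once its value was known. Over 16 other settings its adjusted p ran from 0.0109 to 0.141, with 8 passes. Its losses included those without PD replicate 1 (0.0749), PD replicate 2 (0.0898), PD replicate 3 (0.0887), DMSO replicate 2 (0.104) and DMSO replicate 3 (0.141).

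Among other droplet coat and biogenesis genes 2 of 8 rose and 0 fell, where 14.3% and 12.7% of all tested genes did. LDAF1, the partner of seipin at sites of droplet formation (TMEM159 in the table), had 15, 17.4 and 18.3 FPKM in PD replicates 1 to 3, against 6.29, 6.42 and 5.29 FPKM in DMSO replicates 1 to 3 (log2 fold change 1.35 ± 0.11, limma adjusted p = 0.000394). BSCL2, which encodes seipin, averaged 3.11 ± 0.671 FPKM in PD and 1.26 ± 0.300 FPKM in DMSO samples (adjusted p = 0.00868). BSCL2 overlaps GNG3 on the opposite strand, which averaged 5.93 FPKM in PD and 1.77 FPKM in DMSO samples, and reads of the pair cannot be told apart if counting ignored the strand. Among other lipolysis genes 2 of 7 rose and 0 fell, beside the same 14.3% and 12.7%. PNPLA3, a lipase relative on droplets, averaged 5.41 FPKM in PD and 2.71 FPKM in DMSO samples (limma adjusted p = 0.00354). FAF2, which takes part in the extraction of proteins from droplets and the endoplasmic reticulum, averaged 47.0 FPKM in PD and 34.0 FPKM in DMSO samples (0.00606). Whether lipolysis itself changed was not tested. PNPLA3 shares strand and ground with SAMM50, at 6.46 FPKM in PD and 8.23 FPKM in DMSO samples. ABHD5, the coactivator of PNPLA2, averaged 3.99 FPKM in PD and 3.85 FPKM in DMSO samples without passing (limma adjusted p = 0.799; picked once its value was known).

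Fatty acid uptake and activation had 3 rises and 1 fall among 9 tested genes. DBI, an acyl-CoA binding protein, averaged 10.9 ± 2.10 FPKM in PD and 4.73 ± 0.522 FPKM in DMSO samples (SD, n = 3 each; limma adjusted p = 0.00300). The fatty acid binding protein gene FABP3 and the acyl-CoA synthetase gene ACSL3, whose enzyme sits on forming droplets, had log2 fold changes of 0.75 and 0.52, while FABP5 had -0.48 (adjusted p = 0.0422). ACSL3 passed under 11 of 16 other settings, and its losses included those without PD replicate 2 (0.0566), DMSO replicate 2 (0.0691) and DMSO replicate 3 (0.0662). FABP5 passed under 9, and its losses included those without PD replicate 1 (0.117), PD replicate 2 (0.103), PD replicate 3 (0.0651), DMSO replicate 2 (0.114) and DMSO replicate 3 (0.134). In the lipoprotein lipase list 0 of 3 tested genes passed. The lipase maturation factors LMF2 and LMF1 stood at log2 fold changes of -0.28 and -0.04. LMF2 passed under 3 of 16 other settings, among them without DMSO replicate 1 at -0.44 (adjusted p = 0.0151). VLDLR, the other tested gene, had all PD samples below all DMSO samples and fell just short, at -0.35 (limma adjusted p = 0.0532). It passed under 5 of 16 other settings and was named after its value was seen.

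Past CPT1A, the tested genes of the oxidation route showed no common direction. Of the carnitine shuttle 0 of 5 tested genes passed, and 4 of the 9 listed were too low to test. Of those 4, CPT1B and CPT1C overlapped between groups, while CROT and MLYCD had all PD samples below all DMSO samples. CROT averaged 0.382 FPKM in PD and 1.05 FPKM in DMSO samples, and MLYCD 0.287 FPKM and 0.535 FPKM (both named after their values were seen). Genes too low to test in other lists went both ways. MGLL of the lipolysis list averaged 0.475 FPKM in PD and 0.146 FPKM in DMSO samples. SLC27A2 of the uptake list averaged 0.469 FPKM in PD and 0.875 FPKM in DMSO samples. Both had separate groups and were picked once their values were known. CRAT, carnitine acetyltransferase, averaged 11.5 FPKM in both groups (log2 fold change 0.02, negative under equal totals and upper quartile scaling), and the carrier SLC25A20 stood at -0.29. In mitochondrial beta oxidation 2 of 18 rose and 3 fell, with a median of -0.11. HADHA, the alpha subunit of the trifunctional protein, averaged 53.6 ± 1.88 FPKM in PD and 35.7 ± 0.921 FPKM in DMSO samples (SD, n = 3 each; limma adjusted p = 0.00266). It overlaps HADHB, the beta subunit gene, on the opposite strand, at 41.0 FPKM in PD and 31.6 FPKM in DMSO samples. ECI1, which moves double bonds of unsaturated chains, averaged 18.3 ± 2.49 FPKM in PD and 33.9 ± 1.22 FPKM in DMSO samples (0.00223). ACAD9 and DECR1, a dehydrogenase and a dienoyl reductase, had log2 fold changes of -0.54 and -0.37, and ETFDH, which passes electrons on, had 0.33 (limma adjusted p = 0.0411; picked once its value was known). ACAD9 passed under 12 of 16 other settings, and its losses included those without DMSO replicate 2 (0.0598) and DMSO replicate 3 (0.0556). DECR1 passed under 9, and its losses included those without PD replicate 2 (0.108), DMSO replicate 1 (0.0598), DMSO replicate 2 (0.0878) and DMSO replicate 3 (0.102). ETFDH passed under 8, and its losses included those without PD replicate 1 (0.0665), PD replicate 2 (0.121), PD replicate 3 (0.0878), DMSO replicate 2 (0.142) and DMSO replicate 3 (0.121). Its highest limma adjusted p over the settings was 0.144. DECR1 overlaps NBN on the opposite strand, at 6.42 FPKM in PD and 9.04 FPKM in DMSO samples.

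In peroxisomal oxidation 1 of 13 rose and 2 fell. The transporter of very long chains ABCD2 averaged 1.62 ± 0.411 FPKM in PD and 7.20 ± 2.37 FPKM in DMSO samples (SD, n = 3 each; limma adjusted p = 0.00229). EHHADH, the bifunctional enzyme, averaged 1.01 FPKM in PD and 1.96 FPKM in DMSO samples (0.0139), and did not pass with the replicate block (0.0605). Of the ketone body list 1 of 3 fell: OXCT1, which activates ketone bodies for use, stood at -0.39 on the log2 scale (limma adjusted p = 0.0105). OXCT1 did not pass without DMSO replicate 2 (0.0538) or with the replicate block (0.0658).

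PPARG was at or below 0.15 FPKM in each sample, and PPARA averaged 1.45 FPKM in PD and 1.48 FPKM in DMSO samples. Among PPAR regulators 2 of 8 rose and 1 fell. PPARGC1B, a coactivator of oxidative genes, averaged 4.73 FPKM in PD and 2.87 FPKM in DMSO samples (limma adjusted p = 0.00505). RXRB, a partner receptor, averaged 12.2 FPKM in PD and 7.60 FPKM in DMSO samples (0.00678). RXRB overlaps SLC39A7 on the opposite strand, at 31.8 FPKM in PD and 17.0 FPKM in DMSO samples. The corepressor gene NCOR1 had a log2 fold change of -0.34 (0.0324) and passed under 9 of 16 other settings. Its losses included those without PD replicate 1 (0.0574), PD replicate 2 (0.0756), PD replicate 3 (0.0647), DMSO replicate 2 (0.101) and DMSO replicate 3 (0.110). The highest limma adjusted p of NCOR1 over the settings was 0.116. Of the other PPAR targets 0 of 5 rose and 1 fell. ACADVL, the entry dehydrogenase for long chains in mitochondria, stood at -0.18 without passing. The 1 counted as fallen, TXNIP, a redox and glucose uptake regulator named after its value was seen, averaged 0.393 FPKM in PD and 1.73 FPKM in DMSO samples. It reached 1 FPKM in its DMSO samples alone, so it passed the filter through the group where it was high, and its count supports nothing about the list.

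The other hypoxia targets went both ways, with 3 of 8 that rose and 1 that fell. BNIP3, a mitophagy receptor, averaged 5.64 ± 1.35 FPKM in PD and 1.45 ± 0.169 FPKM in DMSO samples (SD, n = 3 each; limma adjusted p = 0.00121), and AL162274.2, which overlaps it on the opposite strand, averaged 7.81 FPKM in PD and 1.71 FPKM in DMSO samples. Reads of that pair cannot be told apart if counting ignored the strand. ADM, which encodes adrenomedullin, and KDM3A, a histone demethylase, had log2 fold changes of 0.83 and 0.54. SLC2A1, the glucose transporter GLUT1, averaged 7.57 FPKM in PD and 12.6 FPKM in DMSO samples (0.00862). VEGFA stood at -0.05 and LDHA at -0.26 without passing, both named after their values were seen.

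**Figure D4:**
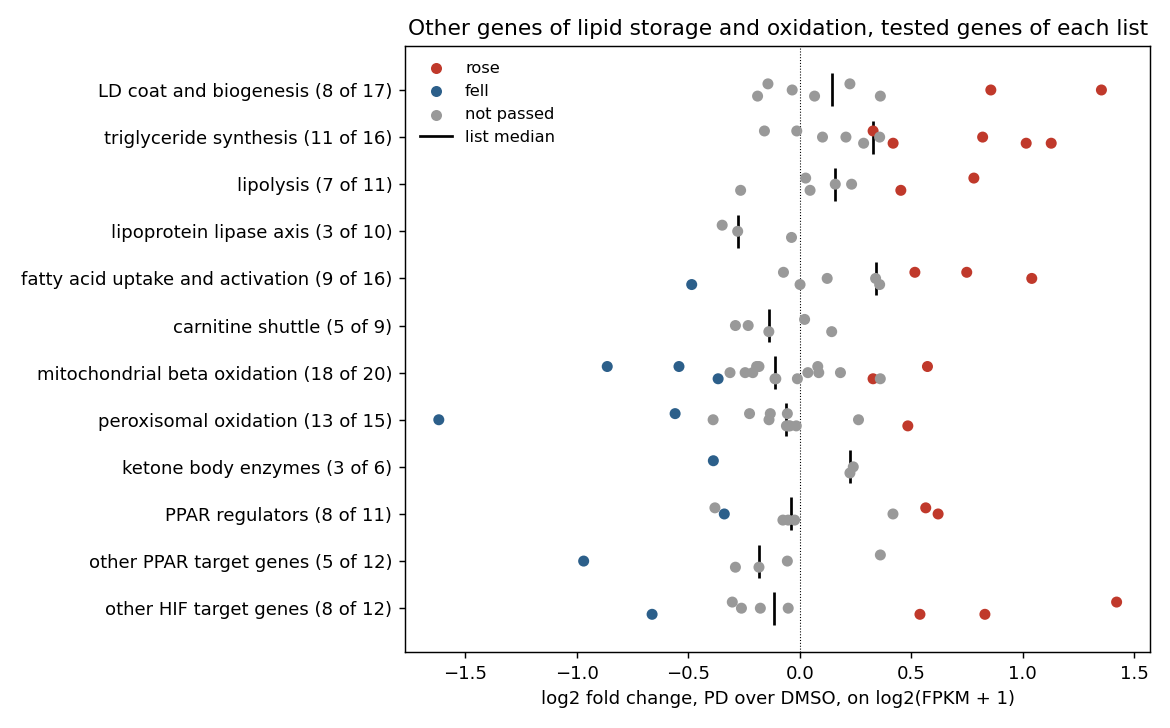
Log2 fold changes of the tested genes of 12 lists (lipid handling, its regulators and other hypoxia targets), PD over DMSO, with the number tested of the number listed. Red points rose, blue points fell, grey points did not pass, and black bars are list medians. Triglyceride synthesis has 5 red points and no blue one, and mitochondrial beta oxidation has both.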

How the data were processed

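Polyadenylated RNA of AZ-521 cells had been read as pairs from stranded Illumina libraries, per the labels' protocols. The authors deposited 1 table of FPKM values with gene lengths. Which aligner and counting program they used, and whether strand was used, is not given. Mouse builds (GRCm38, mm10) appear in the submitters' processing notes, but all 58735 identifiers, with their coordinates, are those of GENCODE release 29 on GRCh38. FPKM times gene length gave whole multiples of 1 step per sample for 100% of values above 0 (tolerance 0.01), which gave reads per gene. The step fits a denominator 0.947 to 1.00 times the gene total in PD and 1.03 to 1.10 times in DMSO samples, whose origin is not given.

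Each column was tied to a sample through its prefix (group) and the last number of the title. The test of PD against DMSO was run in limma 3.58.1 (R 4.3.3) with a mean-variance trend, a pseudocount of 1 and no covariate. A pseudocount of 1 understates changes of low genes. The fit was tested on simulated data, where it recovered 40% of genes changed 1.5-fold and 86% of those changed 2-fold. It recovered 100% of those changed 3-fold or 4-fold, and changes below 1.5-fold were not simulated. The simulation changed 200 genes, drawn from those with more reads, and gave all genes 1 common spread. In the data 27.1% of tested genes passed, so the recovered shares do not give the power of the test there. Members and lists were chosen with earlier results of these data known. Named genes were the 10 members, in each list up to 4 genes past the test with the smallest adjusted p (where fewer than 2 passed, the 2 with the highest mean FPKM), and 3 genes nearest to the member with the largest change. Some genes that the rule names are not reported here. Alternatives varied the pseudocount (0.1), the filter, the scaling, sample weights, the replicate block, voom on recovered reads and the samples used. Ratios used scipy 1.17.1 and figures matplotlib 3.10.9.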

Additional observations from a re-analysis of the deposited data

How the results depend on the processing

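PLIN3 and ANGPTL4 passed under all 16 alternatives, and no tested member changed sign. Members that rose numbered 4 with array weights, and members that fell numbered 2 with array weights and 2 with equal totals, which moved the median of all genes to -0.13. There CPT1A and LPIN2 stood at 0.04 and 0.03 and DGAT1 and HILPDA at -0.33 and -0.40, which relative to that median are 0.17, 0.16, -0.20 and -0.27. Over all genes, 1947 rose and 1731 fell, which became 1290 and 3158 with equal totals and 3189 and 3112 with array weights. With no filter 1075 fell. Without DMSO replicate 1 and PD replicate 3 together, 2402 rose and 2156 fell, and 14 list genes fell. Leaving out 1 sample gave 1144 to 1877 genes that rose and 859 to 1657 that fell, and 5 to 11 list genes that fell. List genes that rose numbered 32 with array weights, and those that fell 20 with array weights and 19 with equal totals. The replicate block left 1089 genes that rose, 755 that fell and 4 list genes that fell. Deviations of same-numbered samples from their group means had correlations of -0.39, 0.17 and -0.16. With 3 samples in each group, such correlations cannot decide whether the numbers pair the samples. LMF1 ran from -0.20 (without DMSO replicate 1) to 0.11 and turned positive without PD replicate 3 (0.11), DMSO replicate 2 (0.03) or DMSO replicate 3 (0.06). CRAT ran up to 0.15 (without DMSO replicate 3) and turned negative with equal totals (-0.13), upper quartile scaling (-0.0036), array weights (-0.15), without PD replicate 1 (-0.07), without DMSO replicate 1 (-0.16) and without DMSO replicate 1 and PD replicate 3 (-0.11). For CPT1A over PLIN2 the log2 ratio difference was 0.21, and leaving out 1 sample gave -0.37 to 0.71, since PLIN2 rests on 2 to 10 reads a sample. The causes of the other changes were not tested.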
